A study of Danio rerio with 2 samples.

Results

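The thin filament of striated muscle was examined through 10 zebrafish genes, namely the troponin T genes *tnnt2a*, *tnnt2c* and *tnnt2d*, the troponin I genes *tnni1b* and *tnni2a.4*, the troponin C genes *tnnc1a* and *tnnc1b*, and the tropomyosin genes *tpm4a*, *tpm3* and *tpma*. They were chosen by name and identifier, with earlier results of these data known, from the 33396 genes listed in the expression table. All 10 passed the filter on low values. For 3 of them (*tnnt2a*, *tnni1b* and *tnni2a.4*) the symbol in the names table is shared by several identifiers, and the identifier decided which gene was meant. The data were RNA-seq of hearts dissected at 72 hpf (hours post-fertilization), with 1 library of control hearts, recorded as wild type, and 1 library of hearts homozygous for the frameshift allele *smyd4* L544Efs*1. Both are recorded as strain Tu. The methods describe maternal and zygotic mutants from a homozygous breeding scheme, pooled embryos in each group, and a green fluorescent cardiomyocyte reporter, Tg(cmcl2:GFP), that guided the dissection and that the controls carried as well.

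In the thin filament, tropomyosin lies along the actin helix and covers the sites where myosin binds. Troponin holds it there and lets it move when calcium arrives. Troponin C binds the calcium, troponin I inhibits the contact of actin and myosin, and troponin T fastens the complex to tropomyosin. Vertebrates carry separate genes of each protein for cardiac, slow and fast muscle, and zebrafish has additional copies of several of them.

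With 1 library per group, no replicate error is available, and genotypes could not be tested. The values are FPKM, that is, read numbers divided by gene length and library size. Whole reads could be recovered from the values, at totals of 18840114 reads for control and 17960132 reads for the other library, and they gave exact Clopper-Pearson 95% intervals for each ratio. These intervals cover counting error only. The mutated gene itself, *smyd4*, was at 2.42 FPKM in both libraries, so the second one is referred to as the mutant-labelled library, and all directions depend on its label. The median difference over all 17800 genes tested was 0.49 in log2(FPKM + 1), mutant-labelled minus control, and became 0.04 with TMM scaling (trimmed mean of M values). In dissected hearts, fewer cells of a type and less RNA per cell cannot be told apart. Among cardiomyocyte markers, of which 2 listed names had no match, all 13 matched genes were above 0 in both libraries and summed to 2355 FPKM in control hearts and 5735 FPKM in the mutant-labelled library. Genes listed as fast skeletal muscle markers were also abundant, with 17 matched genes summing to 7507 and 3995 FPKM. The listed names *mylpfa*, *mylpfb* and *mylz3* had no match and are not in these sums. The largest matched genes in control were the creatine kinases *ckmb* (2507 and 1309 FPKM) and *ckma* (2075 and 628 FPKM). The genes with the symbol *acta1* are on this list and also on that of thin filament partners. How much of the sum came from heart muscle itself was not tested.

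Of the 10 thin filament genes, 6 were higher and 2 were lower in the mutant-labelled library by more than 1 in log2(FPKM + 1). Over all genes tested, 33.3% were higher and 11.6% lower at this threshold, against 60% and 20% of these 10. The 10 were chosen with earlier results of these data known, and this contrast can reflect the choice. Their median log2 difference was 1.63, and it was 1.14 above that of all genes. With TMM scaling 6 were still higher and 2 lower, beside 21.2% and 19.3% of all genes, and the median of the 10 was 1.12. The genes that rose were *tnnt2a*, *tnnt2c*, *tnni1b*, *tnnc1a*, *tnnc1b* and *tpm4a*. Those that fell were *tnni2a.4* and *tpma*, which had the highest FPKM in control of the troponin I genes and of the tropomyosins. For *tnni2a.4* this rank is that of the deposited FPKM, and the smallest gene length that fits its values is 191 bases. Its fewest whole reads in control were 1631, beside 1883 for *tnni1b*. True reads can be a multiple, so the order of the pair in reads is not settled.

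**Figure D1:**
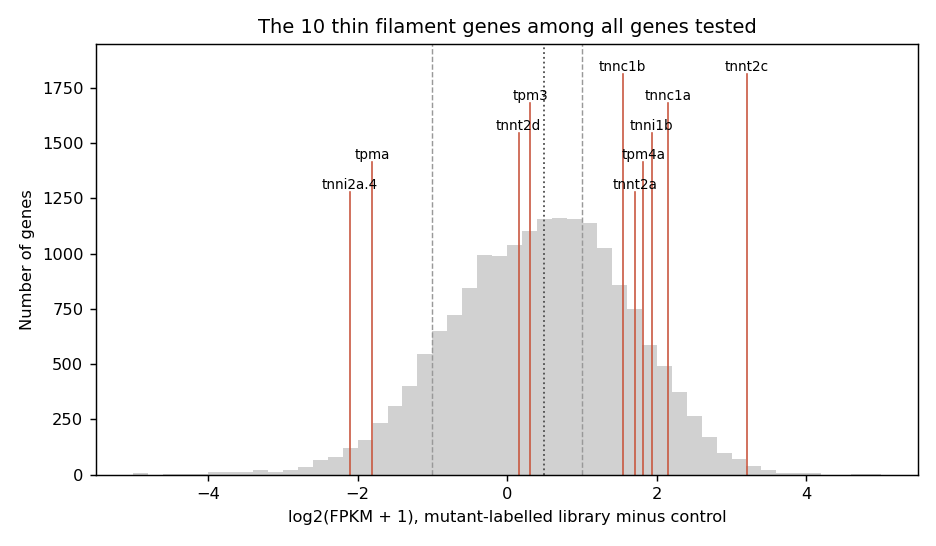
Histogram of the difference in log2(FPKM + 1), library mutant-labelled minus control, over the 17800 genes tested (number of genes on the y axis), with a red line for each of the 10 thin filament genes. Dashed lines mark differences of -1 and 1, and the dotted line marks the median of all genes at 0.49. The 6 genes that rose lie to the right of the dashed line at 1 and the 2 that fell lie to the left of -1.

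**Figure D2:**
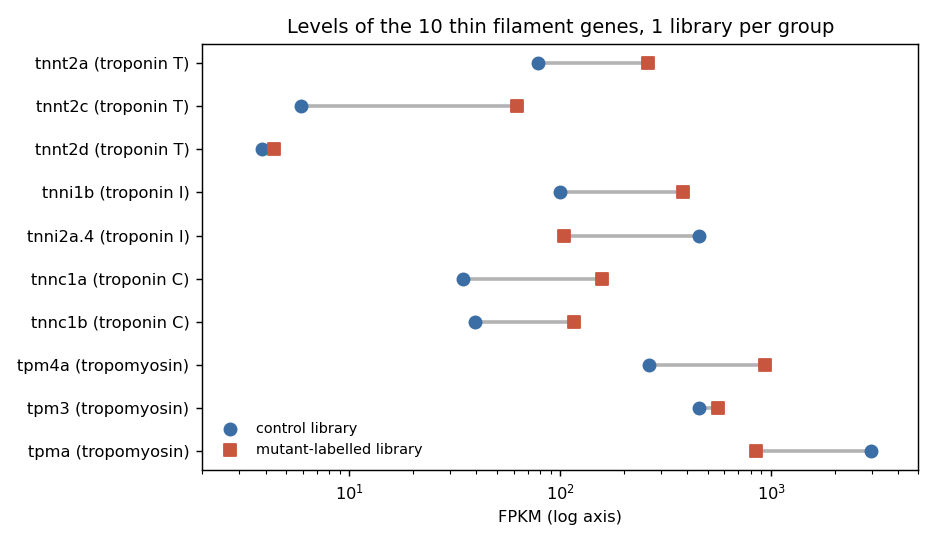
FPKM of each of the 10 genes in the control library (blue circles) and in the mutant-labelled library (red squares) on a log axis, 1 library per group and no error bars. The control values span 3.84 to 2963 FPKM, and the order of the tropomyosins and of the troponin I genes is not the same in the libraries. For both classes this holds for FPKM, and the order in reads is not settled.

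The tropomyosins were the most abundant class, and *tpm4a* went from the lowest to the highest of the 3 between the libraries. *tpma* (ENSDARG00000033683), a striated muscle alpha-tropomyosin that RefSeq also lists as TPM1, was at 2963 FPKM in control hearts and 849 FPKM in the mutant-labelled library. This is a ratio of 0.287 (95% interval 0.281 to 0.292). *tpm4a* (ENSDARG00000023963), which the zebrafish heart needs to contract, rose from 263 to 931 FPKM, a ratio of 3.55 (3.45 to 3.65). *tpm3* (ENSDARG00000005162), whose mammalian counterpart makes slow muscle and non-muscle tropomyosins, was at 453 and 561 FPKM. Its ratio of 1.24 (1.21 to 1.27) did not pass the threshold, and with TMM scaling it was below 1, at 0.866. In FPKM, *tpma* was therefore followed by *tpm3* and *tpm4a* in the control library, and *tpm4a* by *tpma* and *tpm3* in the other. The fewest whole reads in the mutant-labelled library were 22164 for *tpm4a*, 18823 for *tpm3* and 13436 for *tpma*. As true reads can be a multiple, the order in reads is not settled. The ratio of *tpm4a* to *tpma* within a library does not depend on how the libraries are scaled, and it went from 0.0886 in control to 1.097 in the mutant-labelled library. The decrease of *tpma* was the only call among the 8 that was lost when a trend with expression level was removed, at a log2 difference of -0.96.

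*tnnt2a* (ENSDARG00000020610) encodes the cardiac troponin T of zebrafish, without which the heart does not beat (the silent heart mutant). Its level was 78.7 FPKM in control hearts and 261 FPKM in the mutant-labelled library, from 1361 and 4297 recovered reads. The ratio was 3.31 (3.12 to 3.52), or 2.31 with TMM scaling. *tnnt2c* (ENSDARG00000032242), for which RefSeq gives the synonym stnt, rose from 5.87 to 62.3 FPKM. Its ratio of 10.6 (9.22 to 12.3) was the furthest from 1 of the 10 genes in either direction, and the reads went from 211 to 2137. *tnnt2d* (ENSDARG00000002988) was near the bottom of the range in both libraries, at 3.84 and 4.38 FPKM. With only 34 and 37 recovered reads its ratio of 1.14 had an interval from 0.697 to 1.87, which holds 1 and lies within 0.5 and 2. At this depth the ratio could thus not be told from 1. These reads are the fewest that fit, and the interval is too wide where true reads are a multiple. With TMM scaling the ratio of *tnnt2d* was 0.798.

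**Figure D3:**
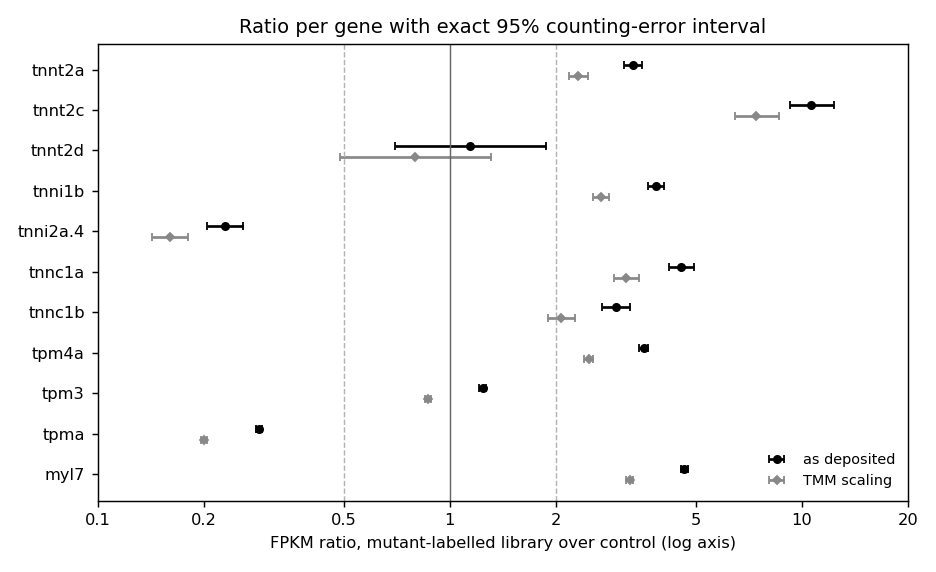
Ratio of FPKM, mutant-labelled library over control, on a log axis for the 10 genes and for *myl7*, as deposited (black circles) and with TMM scaling (grey diamonds), with exact 95% intervals for counting error. The solid line marks a ratio of 1 and the dashed lines ratios of 0.5 and 2. *tnnt2d* has the widest interval, while *tnni2a.4* and *tpma* lie to the left of 0.5 under both scalings.

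The troponin I genes moved in opposite directions. *tnni1b* (ENSDARG00000052708), a troponin I of the zebrafish heart, rose from 99.4 to 382 FPKM, with a ratio of 3.84 (3.65 to 4.04). *tnni2a.4* (ENSDARG00000029069), whose mammalian counterpart TNNI2 is the inhibitory subunit of fast skeletal muscle, fell from 453 to 104 FPKM, with a ratio of 0.230 (0.205 to 0.258). The control library thus held 4.56 FPKM of *tnni2a.4* for each FPKM of *tnni1b*, and the mutant-labelled library held 0.274. The smallest gene lengths that fit the values are 191 bases for *tnni2a.4* and 1006 for *tnni1b*. The fewest whole reads in control were 1631 for *tnni2a.4* and 1883 for *tnni1b*. True reads can be a multiple, so the order of the pair in reads is not settled. *tnni1b* rose with *tnnt2a*, and the ratio of the levels of *tnni1b* and *tnnt2a* was 1.26 in control and 1.46 in the other library.

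Both troponin C genes rose. *tnnc1a* (ENSDARG00000011400), which RefSeq also lists as cTnC, was at 34.7 FPKM in control hearts and 157 FPKM in the mutant-labelled library, a ratio of 4.54 (4.18 to 4.93). *tnnc1b* (ENSDARG00000037539), with the RefSeq synonym stnnc, was at 39.3 and 117 FPKM, a ratio of 2.97 (2.71 to 3.25). In FPKM, *tnnc1b* was thus slightly above *tnnc1a* in control and below it in the other library, and the ratio of *tnnc1a* to *tnnc1b* went from 0.882 to 1.35. The fewest whole reads in control were 711 for *tnnc1a* and 647 for *tnnc1b*. As true reads can be a multiple, their order in reads is not settled. The log2 difference of *tnnc1b* was 1.04 with TMM scaling and fell below the threshold with upper-quartile scaling (0.91), the only one of the 8 calls to do so.

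Shares within each protein class were then compared, since they are free of the scaling between the libraries. Each class was taken as all genes of that name, 31 in total. The share of *tnni1b* in the summed FPKM of the 13 troponin I genes was 11.1% in control and 47.3% in the mutant-labelled library, whereas that of *tnni2a.4* was 50.5% and 12.9%. Among the 6 tropomyosins, *tpm4a* held 5.64% in control and 34.1% in the other library, and *tpma* held 63.7% and 31.1%. The share of *tnnt2a* among the 8 troponin T genes was 13.8% and 31.1%, and that of *tnnt2c* was 1.03% and 7.44%. Among the 4 troponin C genes, *tnnc1a* held 4.22% and 21.7%, and *tnnc1b* held 4.79% and 16.0%. Thus the shares of *tnnt2a*, *tnni1b*, *tnnc1a* and *tpm4a* were each larger in the mutant-labelled library. A share also depends on the other genes of its class, of which some fell, such as *tnni2a.4* and *tpma*. When *tnnt2a* was set against only *tnnt2c* and *tnnt2d*, the change of its share was -9.40 percentage points, because *tnnt2c* rose more. With recovered reads in place of FPKM, *tnni2a.4* held 17.9% of troponin I in control and 2.91% in the mutant-labelled library. The corresponding shares of *tnni1b* were 20.6% and 56.1%. Recovered reads are the fewest that fit each gene, and these read shares would differ where true reads are a multiple.

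**Figure D4:**
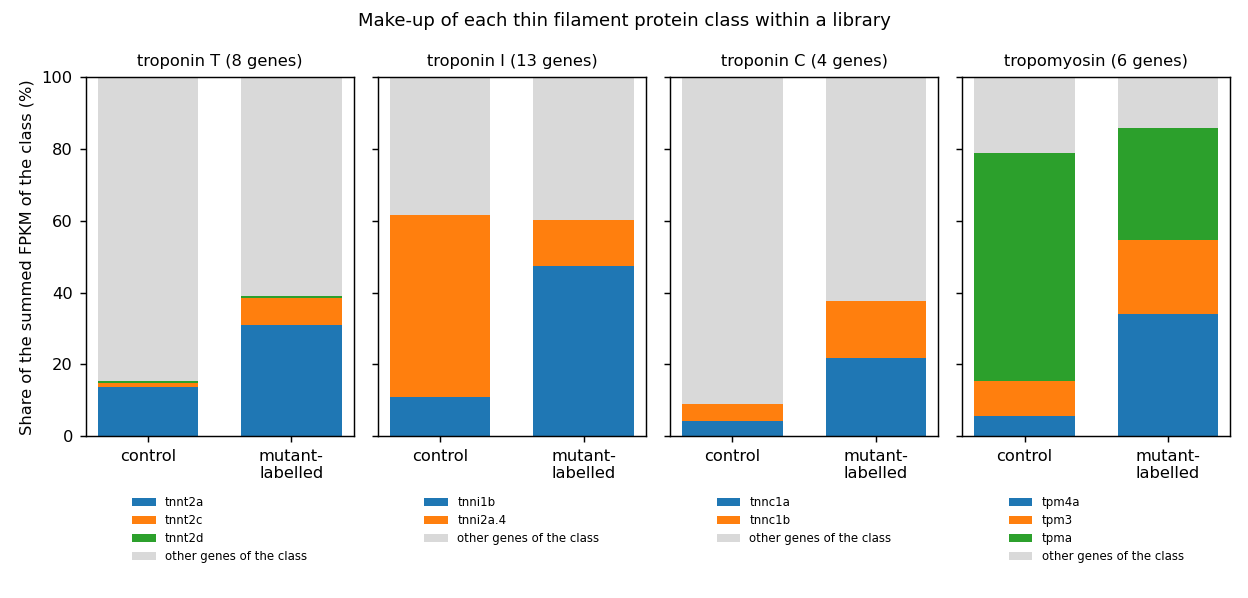
Share of the summed FPKM of each class (y axis, %) held by each of the 10 genes and by the other genes of the class (grey), in the control library and in the mutant-labelled library, 1 library each. *tnni1b* occupies 11.1% of troponin I in control and 47.3% in the other library, and *tpma* occupies 63.7% and 31.1% of tropomyosin.

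The classes were also set against each other. The summed tropomyosins were at 4655 FPKM in control hearts and 2731 FPKM in the mutant-labelled library, a ratio of 0.587. Summed troponin I was at 897 and 807 FPKM, and summed troponin C at 821 and 726 FPKM. Summed troponin T was at 569 and 837 FPKM, and it was the only class with a higher sum in the mutant-labelled library. Its ratio of 1.47 was 1.03 with TMM scaling and 0.940 with upper-quartile scaling. In the control library tropomyosin exceeded troponin T 8.18-fold, troponin I 5.19-fold and troponin C 5.67-fold. In the mutant-labelled library the corresponding ratios were 3.26, 3.39 and 3.76, so that the troponins lay closer together there.

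Levels were next compared with *myl7*, the cardiomyocyte myosin light chain whose promoter drives the reporter. *myl7* was at 642 FPKM in control hearts and 2977 FPKM in the mutant-labelled library, a ratio of 4.64 (4.53 to 4.75), and was thus higher by more than any of the 10 genes except *tnnt2c*. Relative to *myl7*, *tnnc1a* had 0.979 times its control value, *tnni1b* 0.828, *tpm4a* 0.765, *tnnt2a* 0.714 and *tnnc1b* 0.640. Relative to the same gene, *tnnt2c* had 2.29 times its control value, *tpm3* 0.267, *tnnt2d* 0.246, *tpma* 0.0618 and *tnni2a.4* 0.0497. *tnnt2c* was therefore the only one of the 10 genes with a larger ratio than *myl7*. *myl7* does not stand for the whole list of cardiomyocyte markers, of which 4 of 13 were higher and 0 lower, beside 33.3% and 11.6% of all genes tested. Their median log2 difference was 0.58, beside 0.49 for all genes. *cmlc1*, the most abundant of these markers in control, was at 1296 and 1377 FPKM. The part of cardiomyocyte content in the rise of the 6 genes was not tested.

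The fall of *tpma* and *tnni2a.4* was set beside markers of skeletal muscle. Of 16 tested fast skeletal muscle markers, 3 were lower and 4 were higher, beside 11.6% and 33.3% of all genes tested. With TMM scaling 5 were lower and 3 higher, beside 19.3% and 21.2% of all genes. The median log2 difference of these 16 was -0.15, or -0.58 with TMM scaling, beside 0.49 and 0.04 for all genes. Those that fell included the creatine kinase *ckma*, from 2075 to 628 FPKM, and the parvalbumin *pvalb1*, from 717 to 138 FPKM. Those that rose included the myosin heavy chain *myhz2*, from 17.0 to 118 FPKM, and the myogenic factor *myod1*, from 9.05 to 44.9 FPKM. The most abundant of them in both libraries, *ckmb*, was at 2507 and 1309 FPKM. Of 6 matched slow skeletal muscle markers 1 was higher and 1 was lower, and *smyhc3* had no match. With TMM scaling 1 was higher and 2 were lower, and both counts stand beside the same shares of all genes. The median log2 difference of these 6 was -0.15, or -0.46 with TMM scaling. The most abundant of these markers was *myl10*, at 124 and 80.5 FPKM, and their sum was 135 FPKM in control hearts and 90.8 FPKM in the other library. The genes with the symbol *ryr1* were counted in both lists. The part of skeletal muscle content in the fall of the 2 genes was not tested. The fish carry several near copies of these genes, and as the counting rule is not given in the sources used here, reads shared by copies may have been divided between them.

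Of the other 21 troponin and tropomyosin genes, 17 were tested, of which 1 was higher and 3 were lower in the mutant-labelled library. Over all genes tested, 33.3% were higher and 11.6% lower. Their median log2 difference was -0.29, beside 1.63 for the 10 genes described and 0.49 for all genes, and TMM scaling gave 0 higher and 6 lower genes. Since the 10 genes were chosen with earlier results of these data known, the contrast with them can reflect that choice. The lower genes were *tpm1*, from 613 to 212 FPKM, *tpm2*, from 346 to 154 FPKM, and the *tnni2* gene ENSDARG00000045592, from 119 to 47.2 FPKM. The higher gene was the *tnnt3* gene ENSDARG00000030270, a fast skeletal troponin T in mammals, from 56.4 to 135 FPKM. Its log2 difference of 1.25 was 0.74 with TMM scaling, under the threshold. The remaining *tnnt3* gene, ENSDARG00000068457, was the most abundant troponin T of both libraries, at 419 and 372 FPKM. Likewise *tnnc2*, the fast skeletal troponin C of mammals, was the most abundant troponin C, at 743 and 448 FPKM. It held 90.5% of its class in control and 61.7% in the mutant-labelled library.

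**Figure D5:**
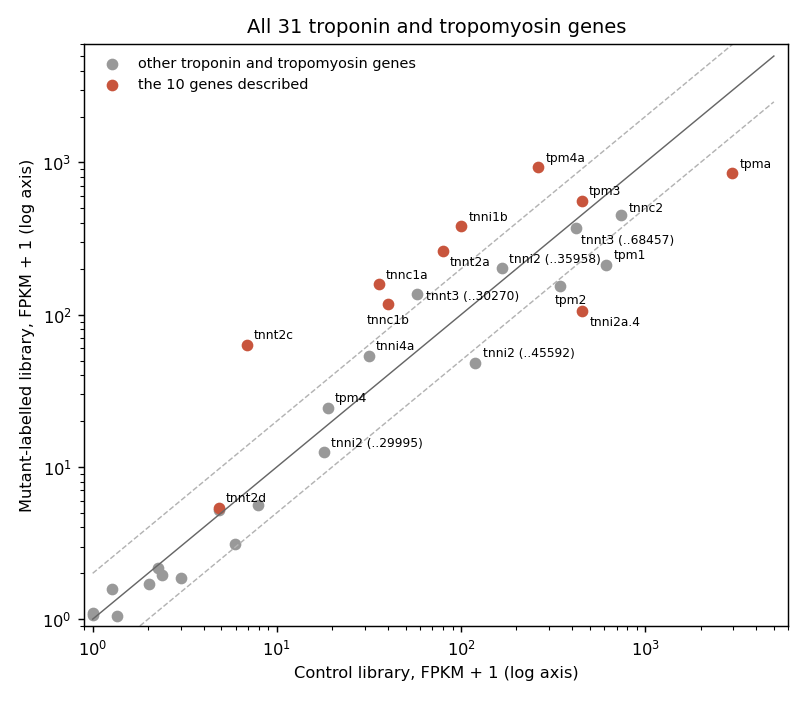
FPKM + 1 of all 31 troponin and tropomyosin genes in the control library (x axis) and the mutant-labelled library (y axis), both on log axes, with the 10 genes described in red and the other 21 in grey. The solid line marks equal values and the dashed lines a difference of 1 on the log2 scale. Of the red points 6 lie above the upper dashed line and 2 below the lower one.

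The *tnni2* genes did not move together. ENSDARG00000035958 was at 166 FPKM in control hearts and 201 FPKM in the mutant-labelled library, and did not pass the threshold, unlike *tnni2a.4* and ENSDARG00000045592. ENSDARG00000029995 was at 17.1 and 11.5 FPKM, and 2 further identifiers of that symbol were at most at 1.37 FPKM. Of the rest of the family with at least 10 FPKM, *tnni4a* was at 30.5 and 52.6 FPKM and the *tpm4* gene ENSDARG00000019128 at 17.9 and 23.6 FPKM, and neither passed the threshold.

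Partners of troponin and tropomyosin on the thin filament were examined as a list of actins, capping and length-regulating proteins and their stabilizers. The listed names *tmod2* and *capza2* had no match. Of 25 tested identifiers 10 were higher and 3 were lower in the mutant-labelled library, beside 33.3% and 11.6% of all genes tested, with a median log2 difference of 0.85 against 0.49 for all genes. With TMM scaling 8 were higher and 4 lower, beside 21.2% and 19.3% of all genes, and the median was 0.45. The largest changes among partners reaching 10 FPKM were those of the actin *actc1c*, from 4.77 to 103 FPKM, of *klhl40* (ENSDARG00000039052), a stabilizer of thin filament proteins in mammals, from 1.95 to 26.7 FPKM, and of *tmod1*, which caps the pointed end of the filament, from 1.74 to 16.0 FPKM. The most abundant actins fell with *tpma*. *actc1a* was at 4275 FPKM in control hearts and 1685 FPKM in the mutant-labelled library, and *actc1b* at 4221 and 831 FPKM. When the trend with expression level was removed, the log2 difference was -0.28 for *actc1a*, under the threshold, and -1.43 for *actc1b*. The 2 genes with the symbol *acta1* did not pass the threshold, with ENSDARG00000036371 at 481 and 819 FPKM and ENSDARG00000055618 at 757 and 477 FPKM. The subunits of the capping protein at the barbed end went different ways. *capza1a* rose from 208 to 520 FPKM, although its log2 difference of 1.32 was 0.80 with TMM scaling, *capza1b* was at 259 and 404 FPKM, and *capzb* fell from 666 to 290 FPKM. Without the expression trend the log2 difference was 1.51 for *capza1a* and -0.88, under the threshold, for *capzb*.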

How the data were processed

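RNA-seq of 72 hpf zebrafish hearts was analysed, with 1 library per group. The authors deposited FPKM values, a unit recognized from the values. Per the labels, TopHat2 2.0.9 and Bowtie2 2.0.6 were used. The genome build, annotation and counting rule are not given in the sources used here, so no coordinates are given. Columns of other samples: 0.

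Genes reaching 1 FPKM in at least 1 of the libraries were tested, and a difference in log2(FPKM + 1) over 1 was counted as higher or lower. FPKM + 1 understates the change of low genes. Library totals came from the ratios of the FPKM values, which are ratios of whole reads times 1 constant. They are the smallest totals that the summed reads do not exceed. The fewest whole reads and gene length were kept for each gene, to a relative tolerance of 1e-09. True reads can be a multiple, and the intervals are then too wide. These reads made up 91.5% (control) and 91.0% (mutant-labelled) of the totals. Names came from the names table, which matched 26433 of 33396 identifiers, and synonyms and gene order from RefSeq (GRCz12tu). Listed names without a match were looked up without their paralog suffix. The 10 genes are all named, as are family genes with at least 10 FPKM, the 3 partners with the largest change and those with at least 100 FPKM in both libraries. The most abundant gene of each marker list is named. The genes *pvalb1*, *myhz2*, *myod1* and *ckma* were picked after their values were seen. Members and lists were chosen with earlier results of these data known.

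Alternatives were TMM (30% and 5% trims), median-of-ratios and upper-quartile scaling, a pseudocount of 0.1, no filter or 1 FPKM in both libraries, a threshold of 2, values relative to *myl7* or to all genes and, added after the values were seen, removal of a lowess trend (span 0.3) on length or expression. Procedures were tested on simulated data in which the shortest genes were lengthened. Read recovery at a recovered length as short as that of *tnni2a.4*, 191 bases, was therefore not covered. Scripts ran under Python 3.11.15 with scipy 1.17.1 for intervals, statsmodels 0.14.6 for lowess, pandas 2.3.3, numpy 2.4.6 and, for plots, matplotlib 3.10.9.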

Additional observations from a re-analysis of the deposited data

How the results depend on the processing

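No paired analysis was possible because each group had 1 library. Of the 10 thin filament genes 8 passed the threshold of 1, and 7 or 8 did so under every scaling, filter, pseudocount and trend removal tried. With a threshold of 2 there were 3, of which 2 were higher (*tnnt2c* and *tnnc1a*) and 1 was lower (*tnni2a.4*), and 1976 of all genes passed in place of 7984. Only 1 gene was lower when the expression trend was removed. The median log2 difference of 1.63 was 1.12 with TMM, 1.11 with median-of-ratios and 0.99 with upper-quartile scaling, 1.65 with a pseudocount of 0.1, 1.18 and 1.33 without the trend on length or expression, and 1.14 relative to all genes. Relative to *myl7* the log2 difference changed sign for 5 of the genes past the threshold, to -0.50 for *tnnt2a*, -0.28 for *tnni1b*, -0.061 for *tnnc1a*, -0.67 for *tnnc1b* and -0.39 for *tpm4a*, and for *tnnt2d* (-2.06) and *tpm3* (-1.90), which had not passed it, because *myl7* itself was higher by 2.21. The log2 difference of *tnnt2c* relative to *myl7* was 0.99, under the threshold, so none of the 6 higher calls held in this setting. Those of *tnni2a.4* (-4.32) and *tpma* (-4.01) stayed past it. The change of share within a class was 17.3 percentage points for *tnnt2a*, 36.2 for *tnni1b*, 17.4 for *tnnc1a* and 28.5 for *tpm4a*. Within the genes described only, it was -9.40, 60.5, 10.6 and 32.6 points, as the denominators hold fewer genes. With recovered reads, the fewest that fit, in place of FPKM it was 17.5, 35.4, 17.0 and 27.3 points. Depth limited *tnnt2d* most, at 34 and 37 recovered reads, the fewest that fit.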

Other observations

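Several troponin genes of zebrafish lie beside each other in the RefSeq annotation of GRCz12tu. Of 32 troponin and tropomyosin genes there, 8 pairs were direct neighbours among protein-coding genes. Among near neighbours, *tnni4a* and *tnnt2e* are separated by 1 gene, with *tnni4a* at 30.5 FPKM in control hearts and 52.6 FPKM in the mutant-labelled library, and *tnnt2e* at 4.96 and 2.10 FPKM. *tnnt2d* is separated by 2 genes from the *tnni4b* cluster, and both it (3.84 and 4.38 FPKM) and *tnni4b.2* (1.27 and 1.18 FPKM) were low.

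Among 43 cardiomyocyte and thin filament partner genes, the cardiac transcription factor gene *hand2* was nearest to *tnnt2a*, *tnni1b* and *tnnc1a* by distance over log2(FPKM + 1) in the 2 libraries (0.63, 1.09 and 0.93), at 50.4 and 268 FPKM. The nearest to *tpm4a* was the *acta1* gene ENSDARG00000036371, at 0.89. A distance over 2 libraries is a description of levels only.

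The lists on other tissues gave sums of 3182 FPKM in control hearts and 2450 FPKM in the mutant-labelled library for erythrocytes, 262 and 244 FPKM for smooth muscle and the outflow tract, 65.5 and 129 FPKM for endothelium, and 18854 and 4883 FPKM for liver and yolk. Although the erythrocyte sum fell, 4 of 7 tested erythrocyte markers were higher and 0 lower, beside 33.3% and 11.6% of all genes. Their median log2 difference was 1.25, beside 0.49 for all genes. With TMM scaling it was 0.76, with 2 higher and 1 lower. The erythrocyte names *hbbe1.1*, *hbbe1.3* and *hbbe2* and the endothelial name *pecam1* had no match. The most abundant matched gene was *hbae3* among the erythrocyte markers, at 2958 and 2100 FPKM, *fli1* among the endothelial ones, at 51.8 and 95.7 FPKM, and *apoa2* among those of liver and yolk, at 16989 and 4177 FPKM. The smallest gene length that fits the values of *fli1* is 171 bases. Its fewest whole reads were 167 and 294, whereas those of *cdh5* of the same list were 457 and 548. True reads can be a multiple, so their order in reads is not settled. Of the smooth muscle markers *acta2* was the most abundant in control, at 128 and 48.9 FPKM, and *tagln* (ENSDARG00000033466) in the other library, at 38.2 and 180 FPKM. The part of these tissues in the differences of the 10 genes was not tested.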
